A study of Mus musculus with 30 samples.

Results

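The axon guidance ligands and receptors were taken from the deposited count table by symbol. They comprise the Slits and their Robo receptors, semaphorins of classes 3 to 7 with plexins and neuropilins, netrins and netrin-G proteins with Dcc and the Unc5 receptors, and ephrins with Eph receptors. The pattern matched 73 of the 39017 rows of the table, which carry 71 different symbols, because Efna5 and Ntng1 each had a second row that was at 0 counts in all 30 libraries. Of the 15627 genes that passed the low-count filter, 57 were members. The cells were βTC3, an insulin-producing line from a mouse islet tumour, in 5 versions with doxycycline-inducible constructs on piggyBac plasmids. These were ALK7, which is a type I receptor for activins and Nodal (gene Acvr1c), its dominant-negative form ALK7-DN, 1 hairpin against ALK7 (sh2), a hairpin pair (sh1/2), and a control on the same backbone as the first pair. ALK7, ALK7-DN and control shared the PB-33 backbone, while both hairpin lines were made on PB-31; a hairpin-free PB-31 line was not analysed here. Every group, the control included, received 1 µg/ml doxycycline (DOX) for 24 hours, either alone or with 50 ng/ml activin B, a TGF-β family ligand, for 24 hours. Each of the 10 groups had 3 libraries from wells of 6-well plates. The labels place 24 libraries in batch 1 and 6 in batch 2. These 6 are those of ALK7-DN treated with activin B and of sh2 given DOX alone. In those lines batch and treatment cannot be told apart, whereas all libraries of the lines labelled ALK7, sh1/2 and control are of batch 1. Whether a line is a single clone is not given in the sources used here.

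Guidance molecules steer growing axons and migrating cells by attracting or repelling them. Slits are secreted proteins that repel cells through Robo receptors. Semaphorins signal through plexins, and the secreted class 3 semaphorins usually need a neuropilin as the binding subunit. Netrin attracts through Dcc and repels through Unc5 receptors. Ephrins and Eph receptors are both bound to membranes and signal at cell contacts, often in both cells. Outside the nervous system the same families shape vessels and epithelia, and in β cells EphA5 and ephrin-A5 are known for tuning insulin secretion between neighbouring cells.

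Library totals ran from 18904884 to 34740789 counts, and values below are in CPM, the count relative to the TMM-scaled library size, unless a level per length is named. Bulk RNA cannot separate fewer cells of a type from less RNA per cell. All 9 β cell markers checked passed the filter, with a summed level of 12400 to 23600 CPM. Their sum was lower with activin B without overlap in 4 lines: 15900 to 18000 CPM with activin B, against 19900 to 21600 CPM with DOX alone, in the line labelled ALK7, 16700 to 19000 against 21600 to 23600 CPM in ALK7-DN cells, 16100 to 16400 against 20300 to 22600 CPM in sh2 cells, and 14700 to 18200 against 21200 to 22400 CPM in control cells. The groups overlapped in sh1/2 cells, with 13900 to 15800 CPM with activin B, against 12400 to 17800 CPM with DOX alone. The part of this shift in the guidance gene results was not tested. The summed levels of the marker lists for endothelial cells, fibroblasts and pericytes, immune cells, glia, and exocrine and duct cells stayed between 0.265 and 7.28 CPM in every library, and Cdh5, the endothelial cadherin, was at 0 in 27 of the 30 libraries. In 3 libraries, sh1/2 DOX replicates 1 and 3 and control activin B replicate 2, the deviation of genes from their mean over all libraries fell with the GC content of the gene, with Spearman correlations across genes of -0.491, -0.533 and -0.572, against -0.307 to 0.412 in the others. For the comparisons that use these libraries, results are given with and without them, and the calls that ended without them are named. Leaving them out keeps replicate 2 as the only library of the sh1/2 DOX group. Calls in comparisons with that group that ended in this fit cannot be assigned to GC skew, because replicates were lost as well. The targeted gene, Acvr1c, was lower in the hairpin lines: it had 60.0, 46.1 and 59.9 CPM in sh1/2 cells with DOX alone, against 167, 158 and 170.3 CPM in control cells (log2 fold change -1.58, SE 0.11, edgeR adjusted p = 4.16e-11), and 44.5, 40.9 and 42.7 CPM in sh2 cells with activin B, against 96.95, 109.9 and 95.2 CPM in control cells (log2 fold change -1.24, SE 0.11, edgeR adjusted p = 1.87e-08). It was not higher in the line labelled ALK7, which had 162, 142 and 158 CPM with DOX alone (log2 fold change -0.10, SE 0.10, edgeR adjusted p = 0.754). The sequence of that transgene is not given in the sources used here, so its expression was not checked and the line is named by its label. Smad7, an inhibitor induced by activin signalling, rose with activin B in all 5 lines, by log2 fold changes of 1.71 in sh1/2 cells to 2.92 in the line labelled ALK7.

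Per kilobase of exon, which allows levels of different genes to be compared, the guidance genes of control cells with DOX alone spanned several orders of magnitude. Slit1, a secreted Slit ligand, and Plxnb2, a plexin that binds class 4 semaphorins, led with 49.5 ± 6.63 and 49.4 ± 5.49 CPM per kilobase (mean ± SD, n = 3), values that lie within each other's spread. The netrin receptor Unc5a followed at 12.9 ± 3.63, the Slit receptor Robo2 at 11.3 ± 0.300 and the Eph receptor Epha7 at 9.13 ± 0.344 CPM per kilobase. Unc5a and Robo2 did not differ beyond their spread. Among semaphorins the class 4 transmembrane proteins Sema4a (6.98 ± 0.707) and Sema4b (6.50 ± 0.611) and the class 6 transmembrane Sema6d (6.76 ± 0.138) were the highest in CPM per kilobase, and these 3 overlapped. The highest ephrin was Efnb1, a transmembrane ephrin, at 4.36 ± 0.479 CPM per kilobase, ahead of the GPI-anchored Efna2 at 2.76 ± 0.534 and the transmembrane Efnb2 at 1.29 ± 0.126. After Plxnb2 the plexins were led by Plxna3 (3.17 ± 0.256) and Plxna1 (3.12 ± 0.582), and after Unc5a the netrin receptors by Unc5c (3.78 ± 0.198) and Unc5b (1.805 ± 0.241). Robo1 had 1.02 ± 0.0688, Epha8 0.876 ± 0.269 and Epha4 0.780 ± 0.0898 CPM per kilobase, with the last pair inside each other's spread. Dcc, the attractive netrin receptor, was low at 0.0244 ± 0.0118 CPM per kilobase, as was the netrin ligand Ntn1 at 0.0440 ± 0.00448. Ntn3 had no entry in the annotation used for lengths and has a level in CPM only, 0.800 ± 0.0671. The members that did not pass the filter had at most 10 counts in any library. They are Slit3, Robo3, Robo4, Sema3b, Sema5b, Plxna4, Plxnb3, Ntn4, Ntn5, Ntng2, Epha6, Ephb1, Ephb3 and Efna4, besides the second rows of Efna5 and Ntng1.

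**Figure D1:**
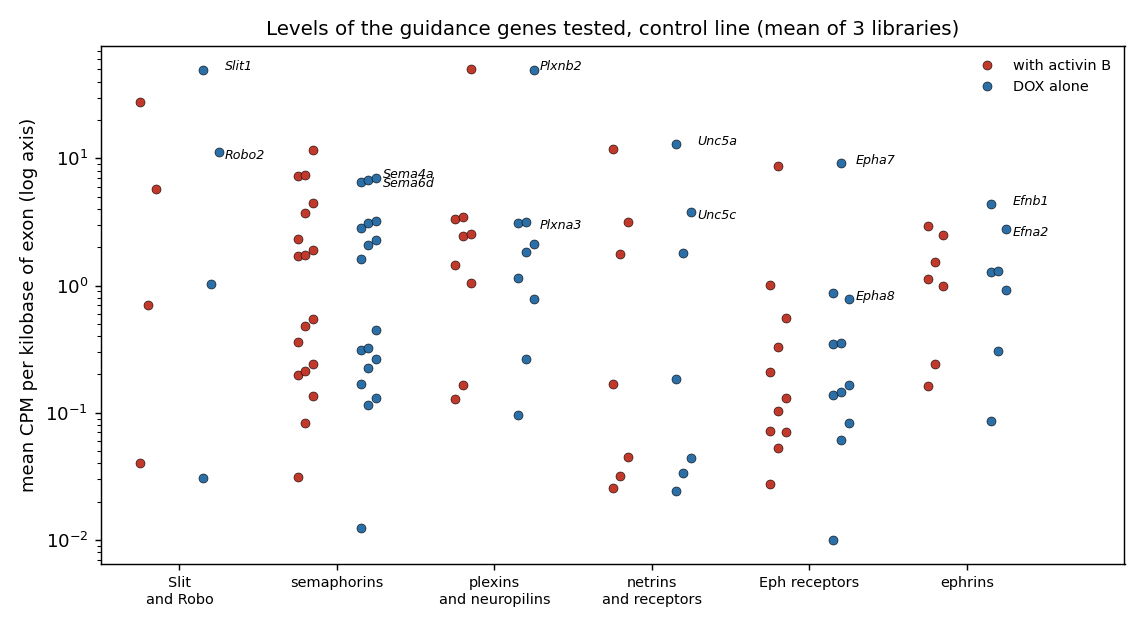
Mean CPM per kilobase of exon (log axis, n = 3 libraries) of the guidance genes tested in control cells, by family, with activin B on the left in red and with DOX alone on the right in blue; Ntn3, which has no length, is left out. With DOX alone Slit1 and Plxnb2 lie at 49.5 and 49.4 CPM per kilobase, while each family also has members below 1 CPM per kilobase.

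The first comparison asked how the guidance genes respond to activin B within each line. Genes are called higher or lower at an adjusted p under 0.05 in edgeR's quasi-likelihood test with Benjamini-Hochberg adjustment over all genes tested. Receptors and ligands moved in both directions. In the line labelled ALK7, 14 of the 57 members rose and 10 fell, where 25.3% of all genes tested were called, 2032 higher and 1921 lower. In ALK7-DN cells 6 rose and 10 fell, against 16.1% of all genes, 1325 higher and 1190 lower. In sh2 cells 11 rose and 7 fell, beside 19.6% of all genes called, 1677 higher and 1393 lower. In sh1/2 cells 18 rose and 8 fell, beside 36.6% of all genes, 2731 higher and 2992 lower. Control cells had 8 members higher and 11 lower, with 20.3% of all genes called, 1671 higher and 1509 lower. As shares of the members tested these calls are 42.1% in the line labelled ALK7, 28.1% in ALK7-DN, 31.6% in sh2, 45.6% in sh1/2 and 33.3% in control cells. The shares of all genes given here are also the background of the family counts further on, and no family was tested as a set. The median log2 fold change over the members was 0.15 in the line labelled ALK7, -0.10 in ALK7-DN, 0.071 in sh2, 0.25 in sh1/2 and -0.032 in control cells, beside medians over all genes tested between -0.011 and 0.0021. The split between directions among the members depended on the scaling. Shares of all genes under the alternatives are not given, so a count that moved is not a result about the members. With a GC correction for each library, 12 members were higher and 11 lower in ALK7-DN cells, 14 higher and 15 lower in sh1/2 cells, and 14 higher and 12 lower in control cells. Without the 3 GC-skewed libraries, the control count was 12 higher and 9 lower, and the control calls of Efnb1 and Plxnc1 ended. That fit keeps replicate 2 as the only sh1/2 DOX library. The sh1/2 calls that ended were those of Efna1, Epha3, Epha8, Ephb6, Plxna1, Plxnb2, Sema3g, Sema4c, Sema6c, Unc5a and Unc5d, and these losses cannot be assigned to GC skew. ALK7-DN cells, which hold none of the 3, had 11 higher and 10 lower in that fit. With the GC correction the median over the members was 0.012 in the line labelled ALK7, -0.027 in ALK7-DN, 0.16 in sh2 and 0.087 in control cells, where it turned sign, as it did without the 3 GC-skewed libraries (0.13). The correction moved the sh1/2 medians to 0.016 over the members, 0.055 over semaphorins, 0.26 over plexins and neuropilins and 0.067 over ephrins, against uncorrected values of 0.25, 0.37, 0.52 and 0.47. A call in one line and not in another does not show that the lines differ; those differences are tested further on. No label states that equal replicate numbers mark paired samples. By a cutoff of 0.1 on the correlation of same-numbered libraries, the lines labelled ALK7, ALK7-DN and sh1/2 met the rule for pairing. The lowest such correlation was 0.0794 in control and 0.0932 in sh2 cells, just under the cutoff. The main tests did not use the replicate number, so their p-values are unpaired in every line. An alternative fit used it as a block in every line. With that number as a block, Efna2, Plxnb2, Sema4a, Unc5a and Unc5b were also called in the line labelled ALK7, Efnb1, Ntng1, Plxna2, Plxnb1, Plxnd1 and Sema4c in ALK7-DN cells, and Efna2, Efnb1 and Unc5b in sh1/2 cells.

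**Figure D2:**
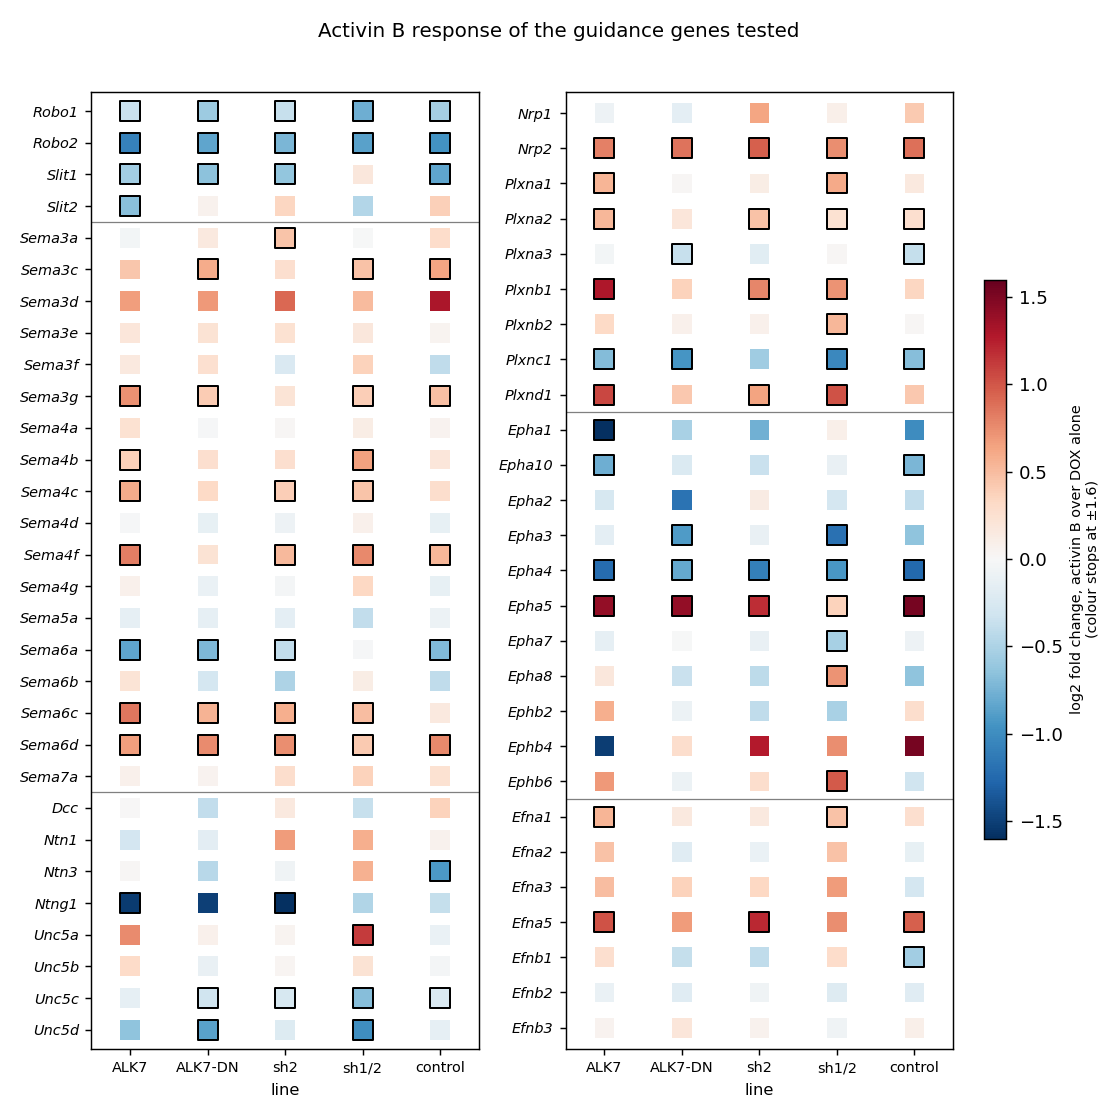
Log2 fold change of activin B over DOX alone for each guidance gene tested (rows, by family) in each line (columns), red for higher and blue for lower with activin B; black frames mark genes called by edgeR. Framed in the same colour across all 5 columns are Epha5, Nrp2 and Sema6d in red and Epha4, Robo1 and Robo2 in blue.

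Of the 57 members, 37 were called in at least 1 line, 20 of them higher and 17 lower, and 0 were called in opposite directions in different lines. The matching shares over all genes were not worked out, so these counts do not set the members apart from other genes. The receptors Epha5 and Nrp2 and the ligand Sema6d rose in all 5 lines, and the receptors Epha4, Robo1 and Robo2 fell in all 5. Over all genes tested, 7.87% were called in one direction in all 5 lines, 4.33% higher and 3.54% lower. These 6 of 57 members kept that pattern under all but 2 of the alternatives, leaving aside the batch term described next. Epha5 dropped out in sh1/2 cells when only the groups compared were fitted (edgeR adjusted p = 0.0562) and without sh1/2 activin B replicate 2 (edgeR adjusted p = 0.0544). In ALK7-DN cells, whose treatment coincides with batch, a fit with a batch term was also made. It takes the batch effect from the hairpin lines under the assumption that both have the same activin B response. Under it the Robo1 change in ALK7-DN cells was -0.16 (edgeR adjusted p = 0.389), while the other 5 members kept their call. The assumption was not tested, and the estimated responses of sh2 and sh1/2 cells lay apart in some members, such as Epha5 and Slit1 (values below). Any such difference enters the batch term, so a call kept or lost under this term cannot be assigned to batch. The comparisons of the 5 lines use separate libraries, and the lines share their parent cells.

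The proximal promoters of these members are shown because they moved the same way in all 5 lines. SMAD3 and SMAD4, the transcription factors that activin receptors activate, can bind the short SMAD box CAGAC, or GTCTG on the other strand. These reverse complements were searched in the 250 bases before each RefSeq transcription start (assembly GRCm38.p6), which covers both strands; RefSeq had a start for 49 of the 57 members tested and for all 6 of these. A box lay in 4 of the 9 windows of the 6 members (44.4%), in 31 of the 65 windows of the members tested (47.7%) and in 13861 of 32851 windows over all RefSeq starts (42.2%). The 4 members with a single RefSeq start are printed 5′ to 3′ on the gene's strand, with the boxes in capitals. The Epha5 window is chr5:84417383-84417632 on the minus strand and that of Nrp2 is chr1:62703067-62703316 on the plus strand. The Epha4 window is chr1:77515089-77515338 on the minus strand and that of Robo1 is chr16:72662899-72663148 on the plus strand. The Robo1 window lies inside the annotated gene, which runs from 72308306 to 73046095 on the plus strand. Which start these cells use was not tested.
Epha5: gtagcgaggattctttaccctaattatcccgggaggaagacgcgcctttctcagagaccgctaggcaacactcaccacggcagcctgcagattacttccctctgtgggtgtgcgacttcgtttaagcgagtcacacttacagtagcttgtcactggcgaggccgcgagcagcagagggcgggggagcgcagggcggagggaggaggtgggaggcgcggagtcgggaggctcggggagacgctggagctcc
Nrp2: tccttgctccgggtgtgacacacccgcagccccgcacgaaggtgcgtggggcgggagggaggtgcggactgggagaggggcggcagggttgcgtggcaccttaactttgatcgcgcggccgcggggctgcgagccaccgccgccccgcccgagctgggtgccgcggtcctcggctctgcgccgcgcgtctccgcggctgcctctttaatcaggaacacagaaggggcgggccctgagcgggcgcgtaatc
Epha4: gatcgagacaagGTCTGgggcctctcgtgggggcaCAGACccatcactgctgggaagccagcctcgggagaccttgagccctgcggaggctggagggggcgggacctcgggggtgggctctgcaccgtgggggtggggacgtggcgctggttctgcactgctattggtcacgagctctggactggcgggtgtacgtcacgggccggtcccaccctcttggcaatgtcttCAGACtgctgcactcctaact
Robo1: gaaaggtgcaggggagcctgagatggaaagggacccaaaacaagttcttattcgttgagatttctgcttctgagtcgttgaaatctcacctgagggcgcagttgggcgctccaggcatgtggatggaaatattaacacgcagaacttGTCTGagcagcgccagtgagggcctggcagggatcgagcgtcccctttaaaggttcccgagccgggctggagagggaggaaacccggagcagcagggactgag
Epha4, which fell, had 3 boxes, at 238, 215 and 21 bases before the start, and Robo1, which also fell, had 1 at 103 bases. Epha5 and Nrp2, which rose, had 0 in this window. Sema6d has 2 RefSeq starts, 1 with a box, and Robo2 has 3, 1 with a box. A match is only a run of letters and was not tested for binding.

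Slit and Robo genes fell wherever they were called. All 4 members tested (Slit1, Slit2, Robo1 and Robo2) fell in the line labelled ALK7, 3 of 4 fell in ALK7-DN, sh2 and control cells, 2 of 4 in sh1/2 cells, and 0 rose in any line. Their median log2 fold change lay between -0.69 in control cells and -0.50 in sh2 cells, beside medians of -0.011 to 0.0021 over all genes tested. The sh1/2 median was -0.63, or -0.40 without the 3 GC-skewed libraries. Robo2 (mm10 chromosome 16, 73891839 to 74411825, minus strand), the Slit receptor with the higher level per kilobase, fell in all 5 lines. Robo2 had 93.1, 86.8 and 99.0 CPM in the line labelled ALK7 with activin B, against 198, 187 and 207 CPM with DOX alone. ALK7-DN cells had 113, 108 and 117 CPM with activin B, against 192, 197 and 217 CPM with DOX alone. Control cells had 95.9, 105 and 94.2 CPM with activin B, against 185, 194 and 195 CPM with DOX alone. In these 3 lines every library with activin B lay below every library with DOX alone. Robo2 had 86.3, 85.7 and 84.9 CPM in sh2 cells with activin B, against 122, 151 and 153 CPM with DOX alone. Robo2 in sh1/2 cells was at 50.2, 47.0 and 46.9 CPM with activin B, against 85.7, 82.0 and 95.7 CPM with DOX alone. The hairpin lines showed the same separation. With DOX alone the sh1/2 libraries had the lowest Robo2 of any line. Robo2 log2 fold changes (± SE) were -1.08 ± 0.074 in the line labelled ALK7 (edgeR adjusted p = 2.31e-11), -0.84 ± 0.073 in ALK7-DN cells (edgeR adjusted p = 3.31e-09), -0.73 ± 0.074 in sh2 cells (edgeR adjusted p = 4.09e-08), -0.87 ± 0.075 in sh1/2 cells (edgeR adjusted p = 3.29e-09) and -0.96 ± 0.074 in control cells (edgeR adjusted p = 2.75e-10).

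Robo1 (mm10 chromosome 16, 72308306 to 73046095, plus strand), the second Slit receptor, also fell in all 5 lines. Robo1 had 12.8, 11.97 and 11.98 CPM in the line labelled ALK7 with activin B, against 14.4, 15.8 and 16.98 CPM with DOX alone. ALK7-DN cells had 13.4, 10.97 and 12.8 CPM with activin B, against 19.7, 17.3 and 18.5 CPM with DOX alone. Control cells had 11.9, 11.8 and 11.01 CPM with activin B, against 17.1, 15.7 and 17.9 CPM with DOX alone. The libraries with activin B were again all below those with DOX alone. Robo1 had 12.04, 12.5 and 11.9 CPM in sh2 cells with activin B, against 15.8, 14.6 and 16.6 CPM with DOX alone. Robo1 in sh1/2 cells was at 20.1, 18.4 and 18.7 CPM with activin B, against 34.1, 30.4 and 34.2 CPM with DOX alone. There was no overlap in the hairpin lines either, and the sh1/2 libraries were the highest with DOX alone. Robo1 log2 fold changes (± SE) were -0.36 ± 0.080 in the line labelled ALK7 (edgeR adjusted p = 0.00115), -0.58 ± 0.079 in ALK7-DN cells (edgeR adjusted p = 4.92e-06), -0.37 ± 0.080 in sh2 cells (edgeR adjusted p = 0.00144), -0.79 ± 0.077 in sh1/2 cells (edgeR adjusted p = 3.29e-08) and -0.54 ± 0.080 in control cells (edgeR adjusted p = 1.25e-05). Slit1 (mm10 chromosome 19, 41600257 to 41743665, minus strand), the secreted ligand of both receptors and, with Plxnb2, the guidance gene with the highest level per kilobase, fell in 4 of the 5 lines. Slit1 had 238, 201 and 193 CPM in the line labelled ALK7 with activin B, against 324, 302 and 301 CPM with DOX alone. ALK7-DN cells had 226, 188 and 183 CPM with activin B, against 344, 302 and 296 CPM with DOX alone. Control cells had 197, 122 and 170.2 CPM with activin B, against 333, 254 and 293 CPM with DOX alone. Activin B libraries lay below DOX libraries in each of these lines. Slit1 had 168, 131 and 143 CPM in sh2 cells with activin B, against 248.8, 226 and 209 CPM with DOX alone. Slit1 in sh1/2 cells was at 279, 261 and 275 CPM with activin B, against 214, 297 and 204 CPM with DOX alone. The sh2 groups did not overlap, whereas in sh1/2 cells they did, and sh1/2 DOX replicates 1 and 3, both GC-skewed, were the lowest of their group. Slit1 log2 fold changes (± SE) were -0.55 ± 0.15 in the line labelled ALK7 (edgeR adjusted p = 0.00631), -0.66 ± 0.15 in ALK7-DN cells (edgeR adjusted p = 0.00223), -0.63 ± 0.15 in sh2 cells (edgeR adjusted p = 0.00275), 0.19 ± 0.15 in sh1/2 cells (edgeR adjusted p = 0.326) and -0.84 ± 0.15 in control cells (edgeR adjusted p = 1.27e-04). The exon GC content of Slit1 is 58.9%. With the GC correction Slit1 was called lower in sh1/2 cells as well (log2 fold change -0.23, adjusted p = 0.00745). Slit2, the other secreted ligand tested, was called in 1 line, the one labelled ALK7. Slit2 had 3.50, 3.79 and 3.88 CPM in the line labelled ALK7 with activin B, against 5.84, 6.02 and 5.86 CPM with DOX alone (log2 fold change -0.66, SE 0.19, edgeR adjusted p = 0.0101), and the groups did not overlap. Its log2 fold changes in the other lines ran from -0.47 in sh1/2 cells to 0.39 in control cells.

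**Figure D3:**
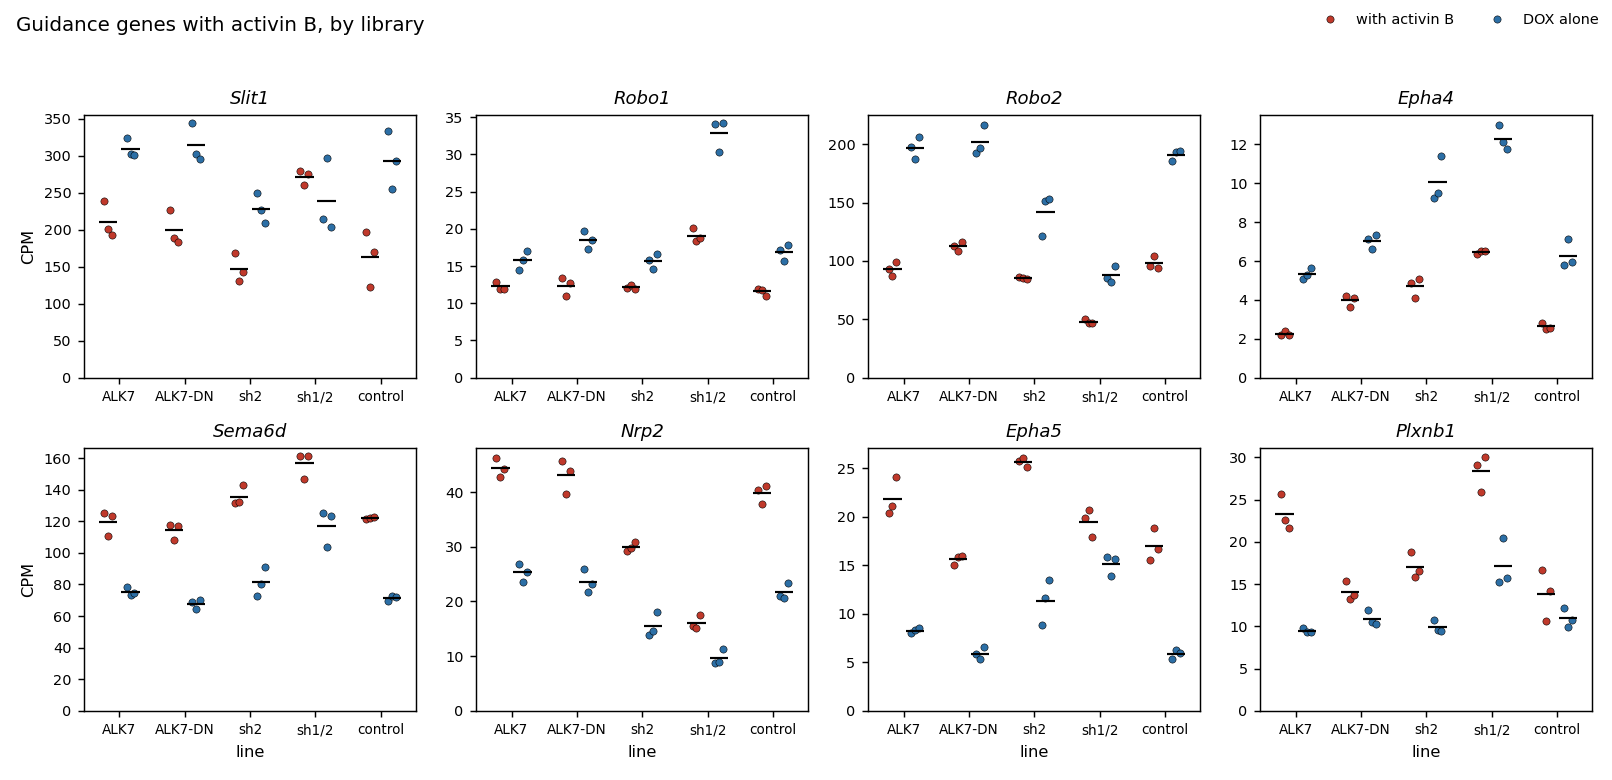
CPM of 8 guidance genes in each library (points) with the group mean (line); in each line of cells the 3 libraries with activin B (red) stand left of the 3 with DOX alone (blue). Epha5, Nrp2 and Sema6d lie higher with activin B in every line and Epha4, Robo1 and Robo2 lower, with no overlap between the groups of a line, whereas the Slit1 groups of sh1/2 cells overlap.

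More semaphorins rose than fell with activin B. Of 18 tested, 6 rose and 1 fell in the line labelled ALK7, 4 rose and 1 fell in ALK7-DN cells, 5 rose and 1 fell in sh2 cells, 7 rose and 0 fell in sh1/2 cells, and 4 rose and 1 fell in control cells. The 1 that fell was Sema6a each time. The family median log2 fold change ran from 0.18 in control cells to 0.37 in sh1/2 cells. In sh1/2 cells, where 36.6% of all genes tested were called, the GC correction gave 5 semaphorins higher and 2 lower and a median of 0.055. The shares of all genes for the other lines are those given above. Sema6d (mm10 chromosome 2, 124089969 to 124667770, plus strand), a transmembrane ligand of Plxna1, rose in all 5 lines. Sema6d had 125, 110.5 and 123.3 CPM in the line labelled ALK7 with activin B, against 78.1, 73.6 and 74.5 CPM with DOX alone. ALK7-DN cells had 117, 108 and 117 CPM with activin B, against 69.1, 64.4 and 70.2 CPM with DOX alone. Control cells had 122, 122 and 122.7 CPM with activin B, against 69.7, 72.5 and 72.0 CPM with DOX alone. The activin B libraries of each line were all above its DOX libraries. Sema6d had 132, 132 and 143 CPM in sh2 cells with activin B, against 72.6, 80.2 and 90.9 CPM with DOX alone. Sema6d in sh1/2 cells was at 162, 147 and 162 CPM with activin B, against 125, 104 and 123.1 CPM with DOX alone. The hairpin lines did not overlap either, and sh1/2 cells already had the highest Sema6d with DOX alone. Sema6d log2 fold changes (± SE) were 0.67 ± 0.073 in the line labelled ALK7 (edgeR adjusted p = 9.48e-08), 0.75 ± 0.073 in ALK7-DN cells (edgeR adjusted p = 2.13e-08), 0.74 ± 0.073 in sh2 cells (edgeR adjusted p = 2.47e-08), 0.42 ± 0.072 in sh1/2 cells (edgeR adjusted p = 1.14e-04) and 0.77 ± 0.073 in control cells (edgeR adjusted p = 1.10e-08).

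Sema6a, a transmembrane ligand of Plxna2 and Plxna4 (mm10 chromosome 18, 47235598 to 47368870, minus strand), fell in 4 lines. Sema6a had 13.5, 10.1 and 11 CPM in the line labelled ALK7 with activin B, against 21.9, 18.9 and 21.5 CPM with DOX alone. ALK7-DN cells had 17.5, 11.6 and 14.3 CPM with activin B, against 26.8, 21.9 and 23.1 CPM with DOX alone. Control cells had 16.8, 13.4 and 15.7 CPM with activin B, against 26.8, 23.9 and 24.1 CPM with DOX alone. Libraries with activin B were below those with DOX alone in these lines. Sema6a had 47.0, 40.7 and 41.0 CPM in sh2 cells with activin B, against 61.6, 53.5 and 53.7 CPM with DOX alone. Sema6a in sh1/2 cells was at 49.4, 47.9 and 44.6 CPM with activin B, against 48.1, 50.4 and 45.2 CPM with DOX alone. In sh2 cells the groups stood apart narrowly, and in sh1/2 cells they overlapped. Sema6a log2 fold changes (± SE) were -0.85 ± 0.13 in the line labelled ALK7 (edgeR adjusted p = 1.07e-05), -0.72 ± 0.12 in ALK7-DN cells (edgeR adjusted p = 1.02e-04), -0.39 ± 0.12 in sh2 cells (edgeR adjusted p = 0.0203), -0.019 ± 0.12 in sh1/2 cells (edgeR adjusted p = 0.918) and -0.70 ± 0.12 in control cells (edgeR adjusted p = 1.30e-04). The Sema6a call in sh2 cells was lost without sh2 DOX replicate 1, or sh2 activin B replicate 2 or 3 (adjusted p up to 0.115). Sema3g, a secreted class 3 semaphorin, rose in every line but sh2. Sema3g had 30.4, 29.9 and 26.1 CPM in the line labelled ALK7 with activin B, against 16.5, 17.7 and 17.9 CPM with DOX alone. ALK7-DN cells had 23.6, 23.8 and 21.4 CPM with activin B, against 17.9, 18.0 and 15.8 CPM with DOX alone. Control cells had 21.3, 17.7 and 21.7 CPM with activin B, against 15.5, 13.8 and 14.2 CPM with DOX alone. The groups stood apart in all 3 lines. Sema3g had 23.8, 21.1 and 23.9 CPM in sh2 cells with activin B, against 20.1, 18.4 and 20.9 CPM with DOX alone. Sema3g in sh1/2 cells was at 26.6, 29.6 and 32.1 CPM with activin B, against 20.2, 26.0 and 20.9 CPM with DOX alone. They stood apart in the hairpin lines too, although the sh2 difference did not pass the test. Sema3g log2 fold changes (± SE) were 0.73 ± 0.10 in the line labelled ALK7 (edgeR adjusted p = 2.42e-06), 0.41 ± 0.10 in ALK7-DN cells (edgeR adjusted p = 0.00383), 0.21 ± 0.10 in sh2 cells (edgeR adjusted p = 0.138), 0.39 ± 0.10 in sh1/2 cells (edgeR adjusted p = 0.00353) and 0.49 ± 0.10 in control cells (edgeR adjusted p = 7.11e-04). The Sema3g call in sh1/2 cells was lost with the GC correction (log2 fold change 0.090, adjusted p = 0.345) and without the 3 GC-skewed libraries (log2 fold change 0.18, adjusted p = 0.404). The Sema3g call in ALK7-DN cells was lost with the batch term (log2 fold change 0.23, adjusted p = 0.315).

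Sema4f, a transmembrane class 4 semaphorin found on neurons, rose in every line but ALK7-DN. Sema4f had 15.2, 17.1 and 15.2 CPM in the line labelled ALK7 with activin B, against 8.88, 8.64 and 9.51 CPM with DOX alone. ALK7-DN cells had 11.9, 11.5 and 11.2 CPM with activin B, against 10.4, 10.3 and 8.64 CPM with DOX alone. Control cells had 12.97, 9.94 and 13.7 CPM with activin B, against 8.42, 8.36 and 8.66 CPM with DOX alone. Activin B libraries were above DOX libraries in all of them, ALK7-DN included. Sema4f had 12.04, 10.7 and 11.4 CPM in sh2 cells with activin B, against 9.30, 7.82 and 6.70 CPM with DOX alone. Sema4f in sh1/2 cells was at 11.02, 11.2 and 12.7 CPM with activin B, against 6.91, 7.84 and 5.51 CPM with DOX alone. The hairpin lines were separated in the same way. Sema4f log2 fold changes (± SE) were 0.81 ± 0.12 in the line labelled ALK7 (edgeR adjusted p = 1.20e-05), 0.23 ± 0.12 in ALK7-DN cells (edgeR adjusted p = 0.23), 0.51 ± 0.12 in sh2 cells (edgeR adjusted p = 0.00347), 0.77 ± 0.12 in sh1/2 cells (edgeR adjusted p = 4.67e-05) and 0.53 ± 0.12 in control cells (edgeR adjusted p = 0.00257). Sema6c, a transmembrane class 6 semaphorin, passed the test in every line but the control. Sema6c had 3.44, 3.31 and 3.05 CPM in the line labelled ALK7 with activin B, against 2.29, 1.61 and 1.53 CPM with DOX alone. ALK7-DN cells had 2.80, 2.172 and 2.29 CPM with activin B, against 2.01, 1.55 and 1.36 CPM with DOX alone. Control cells had 2.06, 1.76 and 2.58 CPM with activin B, against 2.12, 1.67 and 1.99 CPM with DOX alone. In control cells the groups overlapped. Sema6c had 3.12, 2.93 and 2.49 CPM in sh2 cells with activin B, against 1.78, 2.38 and 1.53 CPM with DOX alone. Sema6c in sh1/2 cells was at 2.86, 2.51 and 2.73 CPM with activin B, against 1.92, 1.93 and 1.87 CPM with DOX alone. Both hairpin lines had all activin B libraries above the DOX libraries. Sema6c log2 fold changes (± SE) were 0.85 ± 0.18 in the line labelled ALK7 (edgeR adjusted p = 6.31e-04), 0.56 ± 0.18 in ALK7-DN cells (edgeR adjusted p = 0.0324), 0.58 ± 0.18 in sh2 cells (edgeR adjusted p = 0.0222), 0.50 ± 0.18 in sh1/2 cells (edgeR adjusted p = 0.0313) and 0.16 ± 0.18 in control cells (edgeR adjusted p = 0.61). The Sema6c call in ALK7-DN cells was lost without ALK7-DN DOX replicate 2 or 3, or ALK7-DN activin B replicate 1 or 3 (adjusted p up to 0.164) and with the batch term (log2 fold change 0.64, adjusted p = 0.122). The Sema6c call in sh2 cells was lost without sh2 DOX replicate 1 or 3, or sh2 activin B replicate 1 or 2 (adjusted p up to 0.106). The Sema6c call in sh1/2 cells was lost without sh1/2 DOX replicate 1 or 3, or sh1/2 activin B replicate 1 or 3 (adjusted p up to 0.0929), with the GC correction (log2 fold change -0.040, adjusted p = 0.908) and without the 3 GC-skewed libraries (log2 fold change 0.49, adjusted p = 0.322).

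Sema3c, a secreted semaphorin that signals through neuropilins and Plxnd1, rose in 3 lines. Sema3c had 2.88, 3.90 and 3.50 CPM in control cells with activin B, against 1.88, 2.16 and 2.58 CPM with DOX alone (log2 fold change 0.63, SE 0.18, edgeR adjusted p = 0.0121). ALK7-DN cells had 2.32, 2.84 and 2.83 CPM with activin B, against 1.98, 1.66 and 1.64 CPM with DOX alone (log2 fold change 0.59, SE 0.18, edgeR adjusted p = 0.0229). Neither pair of groups overlapped. In sh1/2 cells its log2 fold change was 0.47 (SE 0.18, edgeR adjusted p = 0.0463). The control call of Sema3c was lost without control DOX replicate 1, or control activin B replicate 2 (adjusted p up to 0.0683). The Sema3c call in ALK7-DN cells was lost without ALK7-DN DOX replicate 2 or 3, or ALK7-DN activin B replicate 2 or 3 (adjusted p up to 0.0871) and with the batch term (log2 fold change 0.39, adjusted p = 0.364). The Sema3c call in sh1/2 cells was lost without sh1/2 DOX replicate 1, 2 or 3, or sh1/2 activin B replicate 1 or 3 (adjusted p up to 0.202) and in DESeq2 (adjusted p = 0.0735).

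Sema4c, a transmembrane ligand of Plxnb2, rose in the line labelled ALK7 (log2 fold change 0.59, SE 0.12, edgeR adjusted p = 4.82e-04), in sh2 cells (log2 fold change 0.40, SE 0.12, edgeR adjusted p = 0.0204) and in sh1/2 cells (log2 fold change 0.46, SE 0.12, edgeR adjusted p = 0.00547). The sh2 call of Sema4c was lost without sh2 DOX replicate 1 or 2, or sh2 activin B replicate 3 (adjusted p up to 0.1). The sh1/2 call of Sema4c was lost without sh1/2 DOX replicate 1 (adjusted p = 0.054), with the GC correction (log2 fold change 0.11, adjusted p = 0.33) and without the 3 GC-skewed libraries (log2 fold change 0.24, adjusted p = 0.399). Sema4b, among the semaphorins with the highest levels per kilobase, rose in sh1/2 cells (log2 fold change 0.65, SE 0.14, edgeR adjusted p = 8.42e-04) and in the line labelled ALK7 (log2 fold change 0.38, SE 0.14, edgeR adjusted p = 0.0448). The Sema4b call in the line labelled ALK7 was lost without ALK7 DOX replicate 1, 2 or 3, or ALK7 activin B replicate 1 or 2 (adjusted p up to 0.173). Sema3a, a secreted repellent that binds Nrp1, was called in 1 line and rose there, in sh2 cells (log2 fold change 0.45, SE 0.11, edgeR adjusted p = 0.00304). Neither Sema4a nor Sema4b was called in control cells. Sema4a had 43.0, 34.7 and 39.7 CPM in control cells with activin B, against 41.8, 34.3 and 37.1 CPM with DOX alone, and the log2 fold change was 0.054 (SE 0.10). Sema4b had 51.4, 29.99 and 44.3 CPM in control cells with activin B, against 39.5, 32.9 and 37.7 CPM with DOX alone, with a log2 fold change of 0.20 (SE 0.14). Both pairs of groups overlapped. With Sema4a, 9 semaphorins were called in no line. Their log2 fold changes over the 5 lines ran from 0.50 to 1.31 in Sema3d, which had at most 15 counts in a library, from 0.043 to 0.24 in Sema3e, from -0.41 to 0.37 in Sema3f, from -0.14 to 0.081 in Sema4d and from -0.13 to 0.33 in Sema4g. For Sema5a the range was -0.40 to -0.093, for Sema6b -0.49 to 0.22, for Sema7a, a ligand of Plxnc1, 0.060 to 0.37, and for Sema4a -0.016 to 0.24.

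Semaphorin receptors changed in both directions. Of 9 plexins and neuropilins tested, 5 rose and 1 fell in the line labelled ALK7, 1 rose and 2 fell in ALK7-DN cells, 4 rose and 0 fell in sh2 cells, 6 rose and 1 fell in sh1/2 cells, and 2 rose and 2 fell in control cells. The family median log2 fold change ran from 0.086 in ALK7-DN cells to 0.53 in the line labelled ALK7. With the GC correction 4 rose and 2 fell in ALK7-DN cells, and 5 rose and 2 fell in control cells. Nrp2 (mm10 chromosome 1, 62703285 to 62818695, plus strand), the neuropilin that binds Sema3c and Sema3f, rose in all 5 lines. Nrp2 had 46.2, 42.8 and 44.3 CPM in the line labelled ALK7 with activin B, against 26.9, 23.6 and 25.4 CPM with DOX alone. ALK7-DN cells had 45.7, 39.7 and 43.8 CPM with activin B, against 25.9, 21.8 and 23.2 CPM with DOX alone. Control cells had 40.4, 37.8 and 41.1 CPM with activin B, against 21.0, 20.7 and 23.3 CPM with DOX alone. Every library with activin B was above every library with DOX alone. Nrp2 had 29.2, 29.7 and 30.9 CPM in sh2 cells with activin B, against 13.9, 14.6 and 18.1 CPM with DOX alone. Nrp2 in sh1/2 cells was at 15.5, 15.1 and 17.5 CPM with activin B, against 8.71, 8.90 and 11.3 CPM with DOX alone. The hairpin groups did not overlap either, and sh1/2 cells had the lowest Nrp2 under both treatments. Nrp2 log2 fold changes (± SE) were 0.81 ± 0.10 in the line labelled ALK7 (edgeR adjusted p = 3.66e-07), 0.87 ± 0.10 in ALK7-DN cells (edgeR adjusted p = 1.94e-07), 0.95 ± 0.10 in sh2 cells (edgeR adjusted p = 5.73e-08), 0.74 ± 0.10 in sh1/2 cells (edgeR adjusted p = 5.99e-06) and 0.88 ± 0.10 in control cells (edgeR adjusted p = 1.54e-07).

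Plxna2, a receptor of class 6 semaphorins and, with neuropilins, of class 3, rose in 4 lines. Plxna2 had 53.2, 49.2 and 52.0 CPM in the line labelled ALK7 with activin B, against 38.2, 35.3 and 33.2 CPM with DOX alone. ALK7-DN cells had 42.4, 38.1 and 40.9 CPM with activin B, against 36.6, 35.0 and 34.1 CPM with DOX alone. Control cells had 47.8, 39.9 and 43.5 CPM with activin B, against 37.3, 33.7 and 38.4 CPM with DOX alone. The groups stood apart in these lines, including ALK7-DN, where the difference did not pass the test. Plxna2 had 39.4, 36.8 and 39.3 CPM in sh2 cells with activin B, against 24.8, 29.1 and 29.7 CPM with DOX alone. Plxna2 in sh1/2 cells was at 35.3, 31.4 and 34.7 CPM with activin B, against 31.4, 25.8 and 28.3 CPM with DOX alone. In sh2 cells they stood apart, and in sh1/2 cells they overlapped. Plxna2 log2 fold changes (± SE) were 0.53 ± 0.082 in the line labelled ALK7 (edgeR adjusted p = 1.71e-05), 0.20 ± 0.082 in ALK7-DN cells (edgeR adjusted p = 0.109), 0.47 ± 0.083 in sh2 cells (edgeR adjusted p = 1.45e-04), 0.25 ± 0.082 in sh1/2 cells (edgeR adjusted p = 0.0239) and 0.26 ± 0.082 in control cells (edgeR adjusted p = 0.0229). The Plxna2 call in control cells was lost without control DOX replicate 2, or control activin B replicate 1 or 3 (adjusted p up to 0.127). The Plxna2 call in sh1/2 cells was lost without sh1/2 DOX replicate 2 or 3, or sh1/2 activin B replicate 1 or 3 (adjusted p up to 0.0961). Plxnc1, the receptor of Sema7a, fell in every line but sh2. Plxnc1 had 1.11, 1.09 and 1.85 CPM in the line labelled ALK7 with activin B, against 2.13, 1.995 and 2.44 CPM with DOX alone. ALK7-DN cells had 1.23, 1.16 and 1.26 CPM with activin B, against 2.44, 1.99 and 2.59 CPM with DOX alone. Control cells had 1.13, 1.41 and 1.56 CPM with activin B, against 2.79, 1.64 and 2.20 CPM with DOX alone. Activin B libraries were below DOX libraries in all 3. Plxnc1 had 1.21, 0.918 and 1.28 CPM in sh2 cells with activin B, against 1.93, 1.13 and 2.02 CPM with DOX alone. Plxnc1 in sh1/2 cells was at 2.02, 1.45 and 1.72 CPM with activin B, against 3.58, 3.42 and 3.58 CPM with DOX alone. The sh2 groups overlapped and the sh1/2 groups did not. Plxnc1 log2 fold changes (± SE) were -0.70 ± 0.22 in the line labelled ALK7 (edgeR adjusted p = 0.0213), -0.94 ± 0.22 in ALK7-DN cells (edgeR adjusted p = 0.00336), -0.57 ± 0.23 in sh2 cells (edgeR adjusted p = 0.0913), -1.03 ± 0.21 in sh1/2 cells (edgeR adjusted p = 7.68e-04) and -0.68 ± 0.22 in control cells (edgeR adjusted p = 0.0318). The Plxnc1 call in control cells was lost without control DOX replicate 1 or 3, or control activin B replicate 1 or 2 (adjusted p up to 0.219) and without the 3 GC-skewed libraries (log2 fold change -0.71, adjusted p = 0.0713). The call in the line labelled ALK7 was lost without ALK7 DOX replicate 3, or ALK7 activin B replicate 1 or 2 (adjusted p up to 0.117). The Plxnc1 call in ALK7-DN cells was lost with the batch term (log2 fold change -0.48, adjusted p = 0.359).

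Plxnb1, the receptor of Sema4d, and Plxnd1, the receptor of Sema3e, each rose in the line labelled ALK7 and in both hairpin lines. Plxnb1 had 25.6, 22.6 and 21.6 CPM in the line labelled ALK7 with activin B, against 9.79, 9.38 and 9.32 CPM with DOX alone (log2 fold change 1.29, SE 0.13, edgeR adjusted p = 2.77e-08). Plxnb1 in sh2 cells was at 18.8, 15.9 and 16.5 CPM with activin B, against 10.8, 9.51 and 9.44 CPM with DOX alone (log2 fold change 0.78, SE 0.13, edgeR adjusted p = 7.59e-05). The groups did not overlap in either line. In sh1/2 cells the log2 fold change of Plxnb1 was 0.72 (SE 0.13, edgeR adjusted p = 1.37e-04), and in ALK7-DN and control cells, where it was not called, 0.37 and 0.35. Plxnd1 had 11.2, 10.7 and 9.11 CPM in the line labelled ALK7 with activin B, against 5.13, 5.32 and 4.29 CPM with DOX alone (log2 fold change 1.07, SE 0.17, edgeR adjusted p = 2.95e-05). Plxnd1 had 15.8, 15.3 and 14.8 CPM in sh1/2 cells with activin B, against 7.23, 9.21 and 5.99 CPM with DOX alone (log2 fold change 1.02, SE 0.17, edgeR adjusted p = 5.17e-05). Again all libraries with activin B were above all with DOX alone. In sh2 cells the Plxnd1 log2 fold change was 0.65 (edgeR adjusted p = 0.0063), and in ALK7-DN and control cells 0.43 and 0.43, neither called. Plxna1, Plxna3 and Plxnb2 had the highest levels per kilobase among plexins. Plxnb2 had 452, 288 and 417 CPM in control cells with activin B, against 421, 336 and 388 CPM with DOX alone (log2 fold change 0.016, SE 0.13, not called). Plxna1 had 36.8, 24.9 and 32.5 CPM in control cells with activin B, against 33.4, 22.9 and 28.6 CPM with DOX alone (log2 fold change 0.15, SE 0.14, not called). Both pairs of groups overlapped. Plxna3 had 21.1, 17.2 and 19.2 CPM in control cells with activin B, against 27.0, 23.0 and 25.02 CPM with DOX alone (log2 fold change -0.38, SE 0.085, edgeR adjusted p = 0.00173), and Plxna3 also fell in ALK7-DN cells (log2 fold change -0.37, SE 0.084, edgeR adjusted p = 0.00228), with no overlap in either line. Plxna1 rose in the line labelled ALK7 (log2 fold change 0.54, SE 0.14, edgeR adjusted p = 0.00417) and in sh1/2 cells (log2 fold change 0.61, SE 0.14, edgeR adjusted p = 0.00187), and Plxnb2 in sh1/2 cells (log2 fold change 0.53, SE 0.13, edgeR adjusted p = 0.00433). The sh1/2 call of Plxna1 was lost without the 3 GC-skewed libraries (log2 fold change 0.43, adjusted p = 0.153). That of Plxnb2 was lost without the 3 GC-skewed libraries (log2 fold change 0.25, adjusted p = 0.303). Nrp1, the neuropilin that binds Sema3a, was called in no line, with log2 fold changes of -0.16 to 0.64.

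Of 8 netrins, netrin-G proteins and receptors tested, 1 fell in the line labelled ALK7, 2 each in ALK7-DN, sh2 and control cells, and 2 in sh1/2 cells, where 1 rose. The family median log2 fold change ran from -0.36 in ALK7-DN cells to -0.024 in sh2 cells, and the sh2 value turned to 0.025 with the GC correction. Unc5c, a repulsive netrin receptor, fell in every line but the one labelled ALK7. Unc5c had 54.3, 50.4 and 56.4 CPM in the line labelled ALK7 with activin B, against 60.1, 58.2 and 60.3 CPM with DOX alone. ALK7-DN cells had 47.0, 48.0 and 49.3 CPM with activin B, against 59.6, 58.3 and 62.5 CPM with DOX alone. Control cells had 60.8, 67.3 and 54.7 CPM with activin B, against 68.0, 73.8 and 75.1 CPM with DOX alone. All activin B libraries were below all DOX libraries in these 3 lines. Unc5c had 36.5, 37.2 and 36.2 CPM in sh2 cells with activin B, against 39.0, 45.5 and 47.6 CPM with DOX alone. Unc5c in sh1/2 cells was at 39.0, 35.1 and 35.5 CPM with activin B, against 64.9, 50.2 and 60.6 CPM with DOX alone. The same held in both hairpin lines. Unc5c log2 fold changes (± SE) were -0.15 ± 0.082 in the line labelled ALK7 (edgeR adjusted p = 0.209), -0.32 ± 0.082 in ALK7-DN cells (edgeR adjusted p = 0.00689), -0.27 ± 0.084 in sh2 cells (edgeR adjusted p = 0.0255), -0.68 ± 0.083 in sh1/2 cells (edgeR adjusted p = 1.11e-06) and -0.25 ± 0.082 in control cells (edgeR adjusted p = 0.0346). The Unc5c call in control cells was lost without control DOX replicate 2 or 3, or control activin B replicate 1 or 3 (adjusted p up to 0.192). The Unc5c call in sh2 cells was lost without sh2 DOX replicate 2 or 3, or sh2 activin B replicate 1, 2 or 3 (adjusted p up to 0.12). The Unc5c call in ALK7-DN cells was lost with the batch term (log2 fold change 0.090, adjusted p = 0.67).

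Unc5d, another repulsive netrin receptor, fell in ALK7-DN and sh1/2 cells. Unc5d had 1.74, 1.12 and 1.30 CPM in ALK7-DN cells with activin B, against 2.66, 2.51 and 2.45 CPM with DOX alone (log2 fold change -0.86, SE 0.22, edgeR adjusted p = 0.00689). Unc5d in sh1/2 cells was at 1.30, 1.17 and 1.18 CPM with activin B, against 2.42, 2.05 and 2.83 CPM with DOX alone (log2 fold change -0.99, SE 0.23, edgeR adjusted p = 0.00186). The groups stood apart in both lines, at low levels. The ALK7-DN call of Unc5d was lost without ALK7-DN activin B replicate 2 (adjusted p = 0.05) and with the batch term (log2 fold change -0.10, adjusted p = 0.882). The Unc5d call in sh1/2 cells was lost without the 3 GC-skewed libraries (log2 fold change -0.75, adjusted p = 0.143). Unc5a, the Unc5 receptor with the highest level per kilobase, was called in 1 line and rose there, in sh1/2 cells. Unc5a had 78.6, 84.3 and 84.0 CPM in sh1/2 cells with activin B, against 30.1, 58.3 and 24.5 CPM with DOX alone (log2 fold change 1.12, SE 0.29, edgeR adjusted p = 0.00512). Unc5a had 66.4, 27.9 and 54.9 CPM in control cells with activin B, against 67.9, 37.7 and 55.2 CPM with DOX alone, with a log2 fold change of -0.10 (SE 0.29, not called). In sh1/2 cells the groups did not overlap, and the 2 GC-skewed DOX libraries were the lowest; in control cells they overlapped. The exon GC content of Unc5a is 62.7%. The sh1/2 call of Unc5a was lost without the 3 GC-skewed libraries (log2 fold change 0.50, adjusted p = 0.386). Unc5b had 13.2, 8.96 and 10.9 CPM in control cells with activin B, against 12.9, 9.97 and 10.99 CPM with DOX alone (log2 fold change -0.032, SE 0.13). Those groups overlapped, and Unc5b, a repulsive netrin receptor, passed the test in no line, with log2 fold changes of -0.12 to 0.31 over the 5. Ntn3, a netrin ligand, fell in control cells at a low level. Ntn3 had 0.465, 0.471 and 0.319 CPM in control cells with activin B, against 0.866, 0.732 and 0.803 CPM with DOX alone (log2 fold change -0.92, SE 0.28, edgeR adjusted p = 0.0199), without overlap. The Ntn3 call was lost without control DOX replicate 1 or 3, or control activin B replicate 3 (adjusted p up to 0.0986) and in DESeq2 (adjusted p = 0.0643). Ntng1, a GPI-anchored netrin-G that does not bind Dcc, was near the limit of detection. Ntng1 had 0.0637, 0.0963 and 0.181 CPM in the line labelled ALK7 with activin B, against 0.276, 0.175 and 0.550 CPM with DOX alone (log2 fold change -1.53, SE 0.55, edgeR adjusted p = 0.0449). Ntng1 in sh2 cells was at 0.0433, 0.0353 and 0 CPM with activin B, against 0.189, 0.292 and 0.0899 CPM with DOX alone (edgeR adjusted p = 0.0203). The sh2 values are 2 counts over the 3 libraries with activin B, against 15 with DOX alone, a ratio of 0.129 with a 95% counting interval of 0.0144 to 0.556 (exact, counting error only). The groups overlapped in the line labelled ALK7 and not in sh2 cells. The call in the line labelled ALK7 was lost without ALK7 DOX replicate 1 or 3, or ALK7 activin B replicate 1 or 2 (adjusted p up to 0.32) and in DESeq2 (adjusted p = 0.085). The Ntng1 call in sh2 cells was lost without sh2 DOX replicate 2, or sh2 activin B replicate 3 (adjusted p up to 0.116) and in DESeq2 (adjusted p = 0.0612). Dcc and Ntn1 were called in no line, with log2 fold changes of -0.40 to 0.37 and of -0.29 to 0.68, at no more than 28 and 22 counts in a library.

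Among Eph receptors the changes seen in all 5 lines went opposite ways, Epha5 up and Epha4 down. Of 11 tested, 1 rose and 3 fell in the line labelled ALK7, 1 rose and 2 fell in ALK7-DN cells, 1 rose and 1 fell in sh2 cells, 3 rose and 3 fell in sh1/2 cells, and 1 rose and 2 fell in control cells. The family median log2 fold change ran from -0.39 in control cells to -0.12 in sh2 and sh1/2 cells. Without the 3 GC-skewed libraries the control median was -0.22, and with the GC correction the sh1/2 median was -0.28. Epha5 (mm10 chromosome 5, 84054761 to 84417382, minus strand), the receptor of A-class ephrins that β cells use in their contacts, rose in all 5 lines. Epha5 had 20.4, 21.1 and 24.1 CPM in the line labelled ALK7 with activin B, against 7.97, 8.33 and 8.49 CPM with DOX alone. ALK7-DN cells had 15.1, 15.8 and 15.9 CPM with activin B, against 5.81, 5.31 and 6.54 CPM with DOX alone. Control cells had 15.5, 18.9 and 16.7 CPM with activin B, against 5.34, 6.27 and 6.001 CPM with DOX alone. Every activin B library lay above every DOX library in these lines. Epha5 had 25.8, 26.1 and 25.1 CPM in sh2 cells with activin B, against 8.85, 11.6 and 13.5 CPM with DOX alone. Epha5 in sh1/2 cells was at 19.9, 20.7 and 17.9 CPM with activin B, against 15.8, 13.9 and 15.6 CPM with DOX alone. The hairpin groups did not overlap either; with DOX alone the sh1/2 libraries had the highest Epha5 of any line. Epha5 log2 fold changes (± SE) were 1.402 ± 0.11 in the line labelled ALK7 (edgeR adjusted p = 4.02e-10), 1.41 ± 0.11 in ALK7-DN cells (edgeR adjusted p = 9.15e-10), 1.18 ± 0.11 in sh2 cells (edgeR adjusted p = 9.58e-09), 0.37 ± 0.11 in sh1/2 cells (edgeR adjusted p = 0.0115) and 1.53 ± 0.12 in control cells (edgeR adjusted p = 1.87e-10). The Epha5 call in sh1/2 cells was lost without sh1/2 activin B replicate 2 (adjusted p = 0.0544). With the GC correction the sh1/2 value was 0.64 (adjusted p = 1.18e-06).

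Epha4 (mm10 chromosome 1, 77367185 to 77515088, minus strand), a receptor that binds both ephrin classes, fell in all 5 lines. Epha4 had 2.20, 2.41 and 2.18 CPM in the line labelled ALK7 with activin B, against 5.09, 5.28 and 5.62 CPM with DOX alone. ALK7-DN cells had 4.18, 3.64 and 4.12 CPM with activin B, against 7.11, 6.64 and 7.35 CPM with DOX alone. Control cells had 2.82, 2.53 and 2.55 CPM with activin B, against 5.77, 7.11 and 5.96 CPM with DOX alone. Every activin B library was below every DOX library. Epha4 had 4.89, 4.09 and 5.09 CPM in sh2 cells with activin B, against 9.22, 9.51 and 11.4 CPM with DOX alone. Epha4 in sh1/2 cells was at 6.37, 6.54 and 6.49 CPM with activin B, against 12.98, 12.1 and 11.8 CPM with DOX alone. The same separation held in the hairpin lines, of which sh1/2 had the highest Epha4 with DOX alone. Epha4 log2 fold changes (± SE) were -1.24 ± 0.10 in the line labelled ALK7 (edgeR adjusted p = 9.77e-10), -0.82 ± 0.10 in ALK7-DN cells (edgeR adjusted p = 6.57e-07), -1.098 ± 0.10 in sh2 cells (edgeR adjusted p = 4.20e-09), -0.93 ± 0.095 in sh1/2 cells (edgeR adjusted p = 5.93e-08) and -1.25 ± 0.10 in control cells (edgeR adjusted p = 7.72e-10).

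Epha10, an Eph receptor without kinase activity, fell in control cells and in the line labelled ALK7. Epha10 had 1.48, 1.24 and 1.77 CPM in control cells with activin B, against 3.08, 2.13 and 2.32 CPM with DOX alone (log2 fold change -0.73, SE 0.18, edgeR adjusted p = 0.00498), without overlap. The Epha10 call in control cells was lost without control DOX replicate 1 (adjusted p = 0.0555) and with the GC correction (log2 fold change -0.56, adjusted p = 0.0516). In the line labelled ALK7 the change was -0.78 (SE 0.18, edgeR adjusted p = 0.00164). Epha3, a receptor of A-class ephrins, fell in ALK7-DN and sh1/2 cells. Epha3 had 0.692, 0.420 and 0.332 CPM in ALK7-DN cells with activin B, against 1.02, 0.774 and 0.945 CPM with DOX alone (log2 fold change -0.91, SE 0.29, edgeR adjusted p = 0.0324). Epha3 in sh1/2 cells was at 0.455, 0.586 and 0.538 CPM with activin B, against 1.30, 1.03 and 1.34 CPM with DOX alone (log2 fold change -1.19, SE 0.28, edgeR adjusted p = 0.00257). The groups stood apart in both lines. The ALK7-DN call of Epha3 was lost without ALK7-DN DOX replicate 1 or 3, or ALK7-DN activin B replicate 2 or 3 (adjusted p up to 0.176), in DESeq2 (adjusted p = 0.0726) and with the batch term (log2 fold change 0.17, adjusted p = 0.869). The Epha3 call in sh1/2 cells was lost without the 3 GC-skewed libraries (log2 fold change -0.95, adjusted p = 0.172). Epha1 was called in 1 line, the one labelled ALK7, where it fell at a low level. Epha1 had 0.0637, 0.0321 and 0.254 CPM in the line labelled ALK7 with activin B, against 0.355, 0.350 and 0.511 CPM with DOX alone (log2 fold change -1.81, SE 0.57, edgeR adjusted p = 0.0209), without overlap. The Epha1 call was lost without ALK7 DOX replicate 3, or ALK7 activin B replicate 1 or 2 (adjusted p up to 0.121). In sh1/2 cells Epha7 fell, while Epha8 and Ephb6, an Eph receptor without kinase activity, rose. Epha7 had 159.9, 144 and 148 CPM in sh1/2 cells with activin B, against 231, 185 and 236 CPM with DOX alone (log2 fold change -0.53, SE 0.077, edgeR adjusted p = 1.26e-05). Epha8 had 2.31, 2.09 and 1.88 CPM in sh1/2 cells with activin B, against 1.05, 1.77 and 0.909 CPM with DOX alone (log2 fold change 0.72, SE 0.28, edgeR adjusted p = 0.0463). Ephb6 had 0.845, 0.503 and 0.774 CPM in sh1/2 cells with activin B, against 0.253, 0.467 and 0.321 CPM with DOX alone (log2 fold change 0.98, SE 0.36, edgeR adjusted p = 0.0358). None of these 3 pairs of groups overlapped. The exon GC content is 41.7% in Epha7, 61.3% in Epha8 and 59.4% in Ephb6. The Epha8 call was lost without sh1/2 DOX replicate 1 or 3, or sh1/2 activin B replicate 1, 2 or 3 (adjusted p up to 0.198), with the GC correction (log2 fold change 0.26, adjusted p = 0.346) and without the 3 GC-skewed libraries (log2 fold change 0.24, adjusted p = 0.778). The Ephb6 call was lost without sh1/2 DOX replicate 1 or 3, or sh1/2 activin B replicate 1 or 3 (adjusted p up to 0.166), in DESeq2 (adjusted p = 0.0607), with the GC correction (log2 fold change 0.60, adjusted p = 0.184), without the 3 GC-skewed libraries (log2 fold change 0.59, adjusted p = 0.524) and with the replicate block (adjusted p = 0.0683).

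Epha7, the Eph receptor with the highest level per kilobase, and Epha8 were not called in control cells. Epha7 had 81.8, 90.2 and 83.9 CPM in control cells with activin B, against 87.1, 89.9 and 93.8 CPM with DOX alone (log2 fold change -0.083, SE 0.078). Epha8 had 3.29, 1.58 and 2.94 CPM in control cells with activin B, against 5.05, 2.68 and 4.65 CPM with DOX alone (log2 fold change -0.64, SE 0.26). Both pairs of groups overlapped. Epha2, Ephb2 and Ephb4 were called in no line, with log2 fold changes of -1.18 to 0.13, of -0.51 to 0.58 and of -1.52 to 1.53, at no more than 30, 42 and 13 counts in a library.

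Of 7 ephrins tested, 2 rose in the line labelled ALK7, 0 in ALK7-DN cells, 1 each in sh2 and sh1/2 cells, and in control cells 1 rose and 1 fell, with family median log2 fold changes of -0.13 in control cells to 0.47 in sh1/2 cells. The control median turned to 0.029 with the GC correction and to 0.14 without the 3 GC-skewed libraries, and the sh1/2 median was 0.20 without them. Efna5, which encodes ephrin-A5, a GPI-anchored ligand of Epha5, rose in 3 lines at a level under 2 CPM. Efna5 had 1.02, 1.38 and 1.38 CPM in the line labelled ALK7 with activin B, against 0.710, 0.525 and 0.629 CPM with DOX alone (log2 fold change 1.02, SE 0.27, edgeR adjusted p = 0.00597). Efna5 in sh2 cells was at 0.693, 0.777 and 0.805 CPM with activin B, against 0.265, 0.402 and 0.315 CPM with DOX alone (log2 fold change 1.2, SE 0.31, edgeR adjusted p = 0.00711). Control cells had 0.930, 0.386 and 0.637 CPM with activin B, against 0.433, 0.348 and 0.254 CPM with DOX alone (log2 fold change 0.95, SE 0.32, edgeR adjusted p = 0.0338). The groups stood apart in the line labelled ALK7 and in sh2 cells and overlapped in control cells. The control call of Efna5 was lost without control DOX replicate 2 or 3, or control activin B replicate 1 or 3 (adjusted p up to 0.279) and in DESeq2 (adjusted p = 0.0892). In ALK7-DN and sh1/2 cells, where Efna5 was not called, its log2 fold changes were 0.68 and 0.74. Efnb1, a transmembrane ephrin that binds Ephb receptors and the ephrin with the highest level per kilobase, was called in 1 line and fell there, in control cells. Efnb1 had 11.6, 7.11 and 11.8 CPM in control cells with activin B, against 16.1, 13.1 and 15.9 CPM with DOX alone (log2 fold change -0.56, SE 0.20, edgeR adjusted p = 0.0474), without overlap. The Efnb1 call was lost without control DOX replicate 1 or 3, or control activin B replicate 2 (adjusted p up to 0.261) and without the 3 GC-skewed libraries (log2 fold change -0.36, adjusted p = 0.113). Efna1, a GPI-anchored ligand of Epha2, rose in the line labelled ALK7 (log2 fold change 0.54, SE 0.14, edgeR adjusted p = 0.0053) and in sh1/2 cells (log2 fold change 0.47, SE 0.14, edgeR adjusted p = 0.0147). The sh1/2 call of Efna1 was lost without sh1/2 DOX replicate 1, or sh1/2 activin B replicate 2 (adjusted p up to 0.163), with the GC correction (log2 fold change 0.27, adjusted p = 0.131) and without the 3 GC-skewed libraries (log2 fold change 0.20, adjusted p = 0.602). Efna2 had 5.82, 4.63 and 5.56 CPM in control cells with activin B, against 6.93, 4.67 and 6.04 CPM with DOX alone (log2 fold change -0.13, SE 0.19). Efnb2 had 7.997, 7.37 and 7.89 CPM in control cells with activin B, against 7.89, 9.55 and 9.13 CPM with DOX alone (log2 fold change -0.19, SE 0.10). Both pairs of groups overlapped. Efna2, Efna3, Efnb2 and Efnb3 were called in no line. Their log2 fold changes over the 5 lines were -0.20 to 0.47 in Efna2, -0.28 to 0.68 in Efna3, -0.21 to -0.069 in Efnb2 and -0.064 to 0.19 in Efnb3.

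Of 69 other axon guidance genes, chiefly co-receptors, cytoplasmic effectors and adhesion molecules, 64 were tested. With activin B 24 rose and 7 fell in the line labelled ALK7, 15 rose and 7 fell in ALK7-DN cells, 18 rose and 5 fell in sh2 cells, 23 rose and 15 fell in sh1/2 cells, and 18 rose and 10 fell in control cells. These calls make up 48.4%, 34.4%, 35.9%, 59.4% and 43.8% of the 64. The shares of all genes tested were, in the same order, 25.3%, 16.1%, 19.6%, 36.6% and 20.3%. The median log2 fold change over the 64 ran from 0.014 in control cells to 0.12 in the line labelled ALK7. The 6 with the smallest adjusted p in control cells were called in all 5 lines. Dpysl3 had 151, 156 and 141 CPM in control cells with activin B, against 43.9, 41.2 and 37.9 CPM with DOX alone, and its log2 fold changes ran from 1.73 in sh1/2 cells to 1.99 in the line labelled ALK7. Dpysl3 encodes a collapsin response mediator protein, which binds tubulin in growing axons. Srgap1 had 9.22, 9.73 and 8.25 CPM in control cells with activin B, against 1.395, 1.88 and 1.56 CPM with DOX alone, with log2 fold changes of 1.86 in sh1/2 cells to 2.48 in control cells. Srgap1 encodes a GTPase-activating protein that binds Robo receptors, both of which fell. Chl1 had 5.23, 6.51 and 5.88 CPM in control cells with activin B, against 21.9, 25.3 and 24.7 CPM with DOX alone, with log2 fold changes of -2.18 in the line labelled ALK7 to -1.73 in ALK7-DN cells. Chl1 is an adhesion molecule of the L1 family. Trio, an exchange factor for Rac, rose by log2 fold changes of 0.91 in ALK7-DN cells to 1.19 in sh2 cells, Farp1, an exchange factor that binds plexins, by 1.02 in ALK7-DN cells to 1.27 in the line labelled ALK7, and Vasp, an actin regulator, by 0.63 in sh1/2 cells to 1.13 in the line labelled ALK7. In each of these 6 genes the groups did not overlap in any line.

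The next comparison asked whether a member's response to activin B differed between a line and the control, tested as the difference between both responses. For the line labelled ALK7, ALK7-DN and sh2, 0 of the 57 members passed edgeR's test, where 0.0256%, 0% and 0.0128% of all genes did. At an unadjusted p under 0.05 the counts were 14, 2 and 5 members. No share of all genes at that threshold is given, so these counts are not a result about the members. DESeq2 called 1, 0 and 0. The member DESeq2 called was Plxnb1, whose response in the line labelled ALK7 exceeded that of control cells by 0.95 on the log2 scale (SE 0.18, edgeR adjusted p = 0.0635). Plxnb1 was singled out here after its value was seen. Plxnb1 had 16.7, 10.7 and 14.2 CPM in control cells with activin B, against 12.2, 9.86 and 10.8 CPM with DOX alone, beside the values of the line labelled ALK7 given above. The Plxnb1 difference passed the test with the replicate block (adjusted p = 0.0147), with the GC correction (log2 difference 0.64, adjusted p = 0.0053) and without the 3 GC-skewed libraries (adjusted p = 0.0341). With the block, Efnb1 (adjusted p = 0.0338) and Plxnd1 (adjusted p = 0.046) were called too.

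For sh1/2 cells 11 members passed the test, 7 with a higher and 4 with a lower response than control cells, against 17.7% of all genes (1327 higher and 1441 lower). Epha5 was 1 of those lower, with a difference in log2 response of -1.16 (SE 0.16, edgeR adjusted p = 1.64e-04). Epha5 had 19.9, 20.7 and 17.9 CPM in sh1/2 cells with activin B, against 15.5, 18.9 and 16.7 CPM in control cells with activin B (log2 fold change 0.20, SE 0.11, edgeR adjusted p = 0.158), and the groups overlapped. Epha5 had 15.8, 13.9 and 15.6 CPM in sh1/2 cells with DOX alone, against 5.34, 6.27 and 6.001 CPM in control cells with DOX alone (log2 fold change 1.36, SE 0.12, edgeR adjusted p = 2.10e-09), where the sh1/2 libraries were all higher. Epha5 was also the 1 member called when only those 4 groups were fitted. Without the 3 GC-skewed libraries the Epha5 call remained and the other calls ended. That fit keeps replicate 2 as the only sh1/2 DOX library, so these losses cannot be assigned to GC skew. The other lower responses were those of Epha7 (-0.45), Unc5c (-0.43) and Sema6d (-0.36), with edgeR adjusted p = 0.0188, 0.0285 and 0.033. The higher responses were those of Ntn3 (1.495, SE 0.37), Epha8 (1.36, SE 0.38), Unc5a (1.22, SE 0.41), Slit1 (1.03, SE 0.21), Efnb1 (0.86, SE 0.28), Sema6a (0.68, SE 0.17) and Plxna3 (0.40, SE 0.12), with edgeR adjusted p between 0.00513 in Slit1 and 0.0443 in Unc5a. Ntn3 had 0.878, 1.396 and 1.01 CPM in sh1/2 cells with activin B, against 0.795, 0.840 and 0.534 CPM with DOX alone, beside the control values given above. Across the 15453 genes with a GC content, the difference in response between sh1/2 and control cells had a Spearman correlation of 0.658 with GC content, and the 3 GC-skewed libraries belong to these lines; genes are not independent replicates. With the GC correction 5 members were higher and 5 lower, with the replicate block 20 members were called in all, and leaving out 1 library at a time gave 2 (without control DOX replicate 1 or sh1/2 DOX replicate 3) to 21 (without sh1/2 DOX replicate 2).

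**Figure D4:**
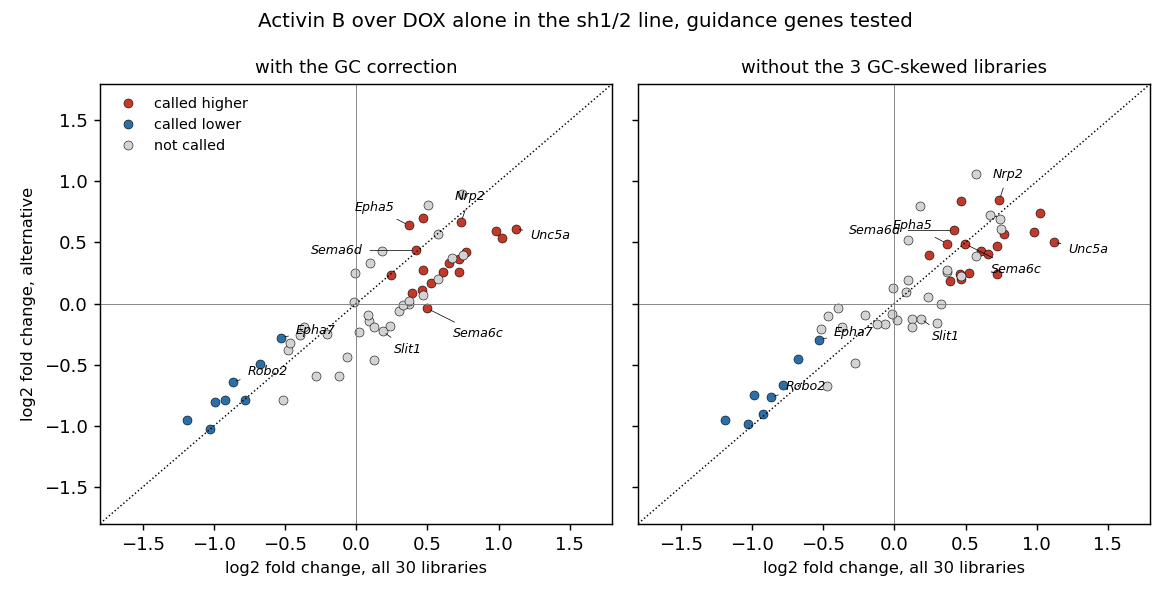
Log2 fold change of activin B over DOX alone in sh1/2 cells for the 57 guidance genes tested, with all 30 libraries (x axis) and, on the y axis, with the GC correction (left panel) or without the 3 GC-skewed libraries (right panel); red and blue mark genes called higher and lower with all libraries, and the dotted line marks equal values. Unc5a is at 1.12 on the x axis and at 0.50 without the 3 libraries, Sema6c at 0.50 and, with the GC correction, at -0.040, while Robo2 is at -0.87 and at -0.64 with the correction. The right panel rests on replicate 2 as the only sh1/2 DOX library.

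The lines were then compared with the control under the same treatment. These comparisons share the control libraries, so their results are not independent of each other. They were made within batch 1, which leaves out sh2 with DOX alone and ALK7-DN with activin B. Slit2, a secreted repellent, was higher in the line labelled ALK7. Slit2 had 5.84, 6.02 and 5.86 CPM in the line labelled ALK7 with DOX alone, against 0.818, 0.662 and 0.845 CPM in control cells with DOX alone (log2 fold change 2.93, SE 0.22, edgeR adjusted p = 1.49e-08). Slit2 had 3.50, 3.79 and 3.88 CPM in the line labelled ALK7 with activin B, against 0.989, 1.24 and 0.814 CPM in control cells with activin B (log2 fold change 1.88, SE 0.21, edgeR adjusted p = 5.44e-06). Under both treatments all 3 libraries of the line labelled ALK7 were above all control libraries. Slit2 in ALK7-DN cells with DOX alone was at 0.742, 0.664 and 0.700 CPM. With DOX alone 3 members were higher and 0 lower in the line labelled ALK7, where 1.98% of all genes (161 higher and 149 lower) were called. The other pair was Epha5 (log2 fold change 0.49, edgeR adjusted p = 0.0249) and Sema3a (log2 fold change 0.40, edgeR adjusted p = 0.0494). Sema3a had 8.05, 8.19 and 8.29 CPM in the line labelled ALK7 with DOX alone, against 6.59, 6.27 and 5.71 CPM in control cells with DOX alone, without overlap. The Epha5 call was lost without control DOX replicate 1 or 3, or ALK7 DOX replicate 1, 2 or 3 (adjusted p up to 0.162). The Sema3a call was lost without any 1 of the 6 libraries (adjusted p up to 0.235). With the GC correction 5 were higher and 3 lower. With activin B 7 members were higher and 1 lower, against 4.53% of all genes (326 higher and 382 lower). The GC correction gave 6 higher and 5 lower. Without the 3 GC-skewed libraries 4 were higher and 0 lower, and the calls of Efna5, Plxna3, Sema4c, Sema6c and Unc5d ended. Across genes this log2 fold change had a Spearman correlation of 0.453 with GC content. Plxnb1 had 25.6, 22.6 and 21.6 CPM in the line labelled ALK7 with activin B, against 16.7, 10.7 and 14.2 CPM in control cells with activin B (log2 fold change 0.74, SE 0.13, edgeR adjusted p = 7.74e-04), without overlap. Unc5d had 0.573, 0.802 and 0.762 CPM in the line labelled ALK7 with activin B, against 1.45, 1.97 and 1.24 CPM in control cells with activin B (log2 fold change -1.11, SE 0.24, edgeR adjusted p = 0.00718), also without overlap. The Unc5d call was lost without control activin B replicate 2, or ALK7 activin B replicate 1 (adjusted p up to 0.0599) and without the 3 GC-skewed libraries (log2 fold change -0.92, adjusted p = 0.054). Efna5 (0.91) and Sema6c (0.61) were higher on the log2 scale with edgeR adjusted p = 0.0482 and 0.0434. The Efna5 call was lost without control activin B replicate 2 or 3, or ALK7 activin B replicate 1, 2 or 3 (adjusted p up to 0.266) and without the 3 GC-skewed libraries (log2 fold change 0.67, adjusted p = 0.207). The Sema6c call was lost without control activin B replicate 1 or 2, or ALK7 activin B replicate 1, 2 or 3 (adjusted p up to 0.232), with the GC correction (log2 fold change 0.33, adjusted p = 0.305) and without the 3 GC-skewed libraries (log2 fold change 0.49, adjusted p = 0.22). The count of 8 was 4 without control activin B replicate 2 or ALK7 activin B replicate 1 or 2, and 11 without control activin B replicate 1. In ALK7-DN cells with DOX alone 0 members were called in edgeR, against 0.966% of all genes. At an unadjusted p under 0.05 there were 7, again without a share of all genes to set beside them. DESeq2 called 1, Epha7 (log2 fold change -0.29, DESeq2 adjusted p = 0.0496), named here after its value was seen.

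The sh2 line differs from the control by backbone as well as by its hairpin, and these cannot be told apart. With activin B, 7 members were higher and 7 lower in sh2 cells, against 9.23% of all genes (478 higher and 965 lower). The GC correction gave 24 calls in all. Without the 3 GC-skewed libraries 6 were higher and 10 lower, and the calls of Efnb2 and Ntng1 ended. Sema6a had 47.0, 40.7 and 41.0 CPM in sh2 cells with activin B, against 16.8, 13.4 and 15.7 CPM in control cells with activin B (log2 fold change 1.48, SE 0.12, edgeR adjusted p = 1.09e-08). Epha4 had 4.89, 4.09 and 5.09 CPM in sh2 cells with activin B, against 2.82, 2.53 and 2.55 CPM in control cells with activin B (log2 fold change 0.83, SE 0.10, edgeR adjusted p = 4.53e-06). All sh2 libraries were above all control libraries for both the semaphorin and the Eph receptor. Plxnd1 had 12.6, 11.7 and 12 CPM in sh2 cells with activin B, against 9.42, 5.57 and 8.001 CPM in control cells with activin B, again without overlap. Epha5 (0.59, edgeR adjusted p = 5.23e-04) and Plxnd1 (0.65, edgeR adjusted p = 0.0118) were also higher on the log2 scale. The Plxnd1 call was lost without control activin B replicate 2 (adjusted p = 0.0875). Unc5d had 0.390, 0.741 and 0.585 CPM in sh2 cells with activin B, against 1.45, 1.97 and 1.24 CPM in control cells with activin B (log2 fold change -1.41, SE 0.25, edgeR adjusted p = 4.97e-04). Sema3c had 1.99, 1.801 and 1.79 CPM in sh2 cells with activin B, against 2.88, 3.90 and 3.50 CPM in control cells with activin B (log2 fold change -0.88, SE 0.18, edgeR adjusted p = 0.00166). The groups did not overlap in either gene, with sh2 the lower. Ephb2 had 0.390, 0.424 and 0.366 CPM in sh2 cells with activin B, against 1.22, 0.557 and 0.956 CPM in control cells with activin B. Ephb2, a receptor of B-class ephrins, did not overlap either and was lower by a log2 fold change of -1.23 (edgeR adjusted p = 0.00789). The Ephb2 call was lost without control activin B replicate 1 (adjusted p = 0.0703). Ntng1 had 2 counts over the 3 sh2 libraries, against 18 over the 3 control libraries, a ratio of 0.121 with a 95% counting interval of 0.0137 to 0.507 (edgeR adjusted p = 0.0251). That call was lost without control activin B replicate 3, or sh2 activin B replicate 2 or 3 (adjusted p up to 0.126), in DESeq2 (adjusted p = 0.0834) and without the 3 GC-skewed libraries (adjusted p = 0.0515).

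**Figure D5:**
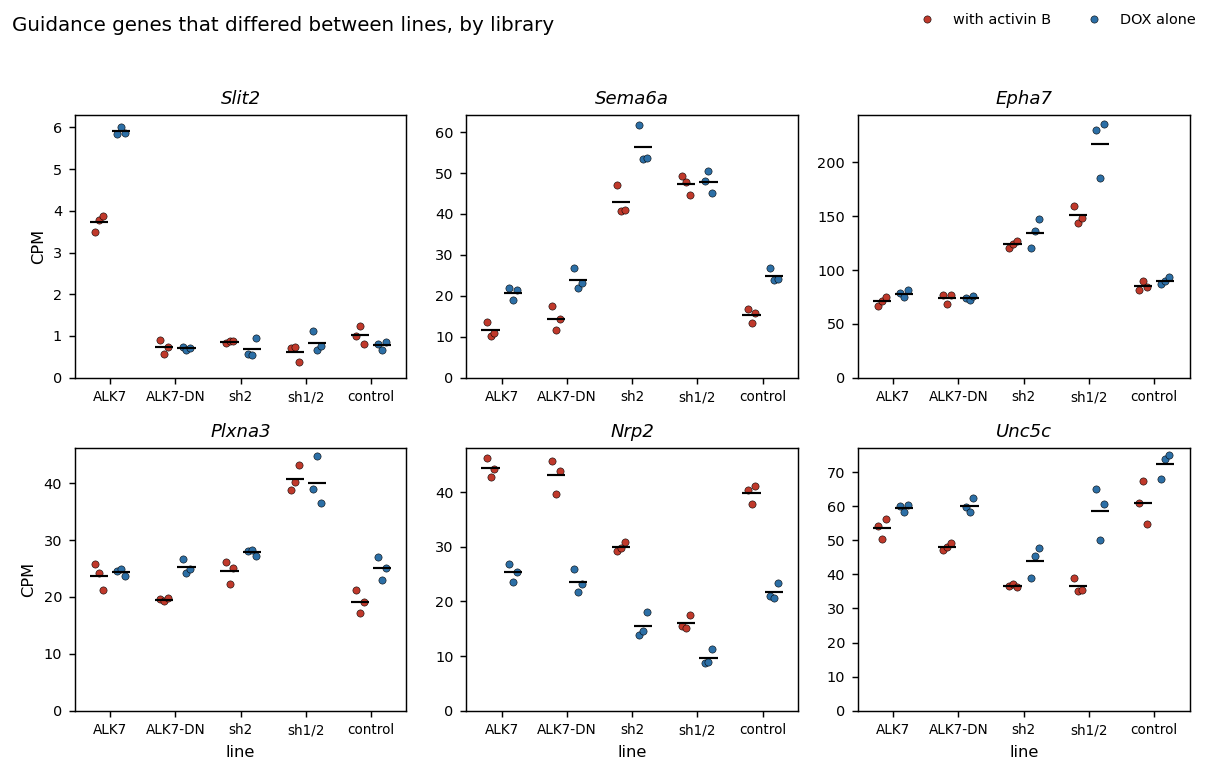
CPM of 6 guidance genes in each library (points) with the group mean (line); in each line of cells the 3 libraries with activin B (red) stand left of the 3 with DOX alone (blue). Slit2 is highest in the line labelled ALK7, Sema6a is higher in both hairpin lines than in the other 3, Epha7 is highest in sh1/2 cells with DOX alone, and Nrp2 is lowest in sh1/2 cells.

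In sh1/2 cells, which share the PB-31 backbone with sh2, 16 members were higher and 11 lower than in control cells with DOX alone, beside 38.0% of all genes (3033 higher and 2901 lower) called. Without the 3 GC-skewed libraries, which keeps replicate 2 as the only sh1/2 DOX library, the calls of Epha10, Epha3, Plxna1, Plxnc1, Sema3a, Sema4a, Sema4d, Sema4f and Sema6b ended. With activin B, 21 were higher and 7 lower, beside 35.2% of all genes (2647 higher and 2852 lower). The GC correction gave 23 higher and 13 lower there. Without the 3 libraries 18 were higher and 8 lower, and the calls of Efna2, Efnb3, Plxnb2 and Slit2 ended. The Spearman correlation of these log2 fold changes with GC content across genes was -0.357 with DOX alone and 0.361 with activin B. Eph receptors were among the members higher with DOX alone. Epha7 had 231, 185 and 236 CPM in sh1/2 cells with DOX alone, against 87.1, 89.9 and 93.8 CPM in control cells with DOX alone (log2 fold change 1.27, SE 0.078, edgeR adjusted p = 8.90e-12). Epha4 had 12.98, 12.1 and 11.8 CPM in sh1/2 cells with DOX alone, against 5.77, 7.11 and 5.96 CPM in control cells with DOX alone (log2 fold change 0.96, SE 0.10, edgeR adjusted p = 2.92e-08). In both, every sh1/2 library was above every control library, as in Epha5, given above. Robo1 had 34.1, 30.4 and 34.2 CPM in sh1/2 cells with DOX alone, against 17.1, 15.7 and 17.9 CPM in control cells with DOX alone (log2 fold change 0.96, SE 0.079, edgeR adjusted p = 1.03e-09). Sema6a had 48.1, 50.4 and 45.2 CPM in sh1/2 cells with DOX alone, against 26.8, 23.9 and 24.1 CPM in control cells with DOX alone (log2 fold change 0.94, SE 0.12, edgeR adjusted p = 1.42e-06). The groups did not overlap in either, and the changes of Epha4, Robo1 and Sema6a lay within their errors of each other. Dcc had 0.940, 0.872 and 1.18 CPM in sh1/2 cells with DOX alone, against 0.481, 0.314 and 0.169 CPM in control cells with DOX alone (log2 fold change 1.62, SE 0.32, edgeR adjusted p = 2.88e-04), without overlap. On the lower side were the Slit receptor Robo2 and the neuropilin Nrp2. Robo2 had 85.7, 82.0 and 95.7 CPM in sh1/2 cells with DOX alone, against 185, 194 and 195 CPM in control cells with DOX alone (log2 fold change -1.12, SE 0.074, edgeR adjusted p = 2.81e-11). Nrp2 had 8.71, 8.90 and 11.3 CPM in sh1/2 cells with DOX alone, against 21.0, 20.7 and 23.3 CPM in control cells with DOX alone (log2 fold change -1.17, SE 0.10, edgeR adjusted p = 3.02e-09). Neither gene overlapped between the lines. Epha8 had 1.05, 1.77 and 0.909 CPM in sh1/2 cells with DOX alone, against 5.05, 2.68 and 4.65 CPM in control cells with DOX alone (log2 fold change -1.69, SE 0.27, edgeR adjusted p = 3.48e-05). Without the 3 GC-skewed libraries the Epha8 value was -1.21 (adjusted p = 0.00745), and with the GC correction -1.33 (adjusted p = 7.31e-07). Epha1 had 0.217, 0.0934 and 0.0534 CPM in sh1/2 cells with DOX alone, against 0.577, 0.453 and 0.676 CPM in control cells with DOX alone (log2 fold change -2.12, SE 0.56, edgeR adjusted p = 0.00434), without overlap.

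With activin B the same pair of receptors was lower in sh1/2 cells. Robo2 had 50.2, 47.0 and 46.9 CPM in sh1/2 cells with activin B, against 95.9, 105 and 94.2 CPM in control cells with activin B (log2 fold change -1.03, SE 0.075, edgeR adjusted p = 1.13e-10). Nrp2 had 15.5, 15.1 and 17.5 CPM in sh1/2 cells with activin B, against 40.4, 37.8 and 41.1 CPM in control cells with activin B (log2 fold change -1.31, SE 0.10, edgeR adjusted p = 1.69e-10). Again the groups did not overlap. Unc5c (-0.74, edgeR adjusted p = 1.84e-07) and Slit2 (-0.73, edgeR adjusted p = 0.0189) were lower on the log2 scale as well. Slit2 had 0.715, 0.726 and 0.370 CPM in sh1/2 cells with activin B, against 0.989, 1.24 and 0.814 CPM in control cells with activin B, without overlap. The Slit2 call was lost without control activin B replicate 2, or sh1/2 activin B replicate 3 (adjusted p up to 0.157) and without the 3 GC-skewed libraries (log2 fold change -0.57, adjusted p = 0.0942). Sema6a had 49.4, 47.9 and 44.6 CPM in sh1/2 cells with activin B, against 16.8, 13.4 and 15.7 CPM in control cells with activin B (log2 fold change 1.63, SE 0.12, edgeR adjusted p = 2.48e-10). Epha4 had 6.37, 6.54 and 6.49 CPM in sh1/2 cells with activin B, against 2.82, 2.53 and 2.55 CPM in control cells with activin B (log2 fold change 1.29, SE 0.10, edgeR adjusted p = 4.19e-10). These members, also higher in sh2 cells, were higher in every sh1/2 library than in any control library. Efna3 had 2.05, 1.65 and 1.55 CPM in sh1/2 cells with activin B, against 0.814, 0.129 and 0.814 CPM in control cells with activin B (log2 fold change 1.52, SE 0.33, edgeR adjusted p = 8.87e-04). Ntn3 had 0.878, 1.396 and 1.01 CPM in sh1/2 cells with activin B, against 0.465, 0.471 and 0.319 CPM in control cells with activin B (log2 fold change 1.39, SE 0.26, edgeR adjusted p = 2.15e-04). Neither the ephrin nor the netrin overlapped between the lines. Control activin B replicate 2, the lowest of its group for Efna3, is 1 of the GC-skewed libraries. Without those 3 libraries the Efna3 value was 1.098 (adjusted p = 0.00318) and the Ntn3 value 1.47 (adjusted p = 7.50e-04).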

How the data were processed

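RNA of βTC3 cells was extracted with Trizol and made into TruSeq stranded mRNA libraries, per the labels. The submitters' processing notes name bcl2fastq 2.17, cutadapt 1.4.2, HISAT2, featureCounts 1.4.4, edgeR and the mm10 genome; the strand setting and the handling of multi-mapping reads are not given in the sources used here. The authors deposited whole-number read counts per gene for the 30 libraries, which were used as deposited; their normalized table was not used. The replicates are wells of one line, so p-values measure only the spread of wells, which may be technical. All replicate pairs differed by more than sampling noise (lowest chi-square per degree of freedom 8.23).

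Genes were filtered with filterByExpr at its defaults, scaled by TMM and fitted with edgeR 4.0.16 (R 4.3.3, limma 3.58.1) on 10 group means, with quasi-likelihood tests of 15 contrasts. The fit was checked on simulated data. Alternatives were DESeq2 1.42.0, its size factors, no filter, fitting only the groups compared, leaving out each library, the replicate number as a block, a GC correction (a spline with 5 interior knots of each library's log2 deviations on exon GC content, used as an offset; GC was known for 98.9% of genes tested), both together, leaving out the 3 GC-skewed libraries, and a batch term for ALK7-DN cells. Same-numbered libraries of a line were compared for pairing, which no label states: their deviations from the group means correlated at 0.0794 to 0.329, over 0.1 in 13 of 15 pairs and in all 3 pairs of the lines labelled ALK7, ALK7-DN and sh1/2, and different-numbered ones at 0.0595 at most. Deviations from a mean of 3 libraries cancel out, so the same-numbered and different-numbered correlations are not independent.

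The members and gene lists were chosen with earlier results of these data known. Values in each library are given for members called in control cells with activin B (up to 8 a direction), those called in one direction in most lines (up to 8 a direction), up to 4 a direction in each other comparison, and the 3 with the highest level per length in each family.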

Additional observations from a re-analysis of the deposited data

Results flagged for a closer look

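The activin B response of 11 members differed between sh1/2 and control cells by edgeR's test of the difference itself, at an adjusted p under 0.05. They make up 19.3% of the 57 members tested, near the 17.7% of all genes that passed the same test. The differences in log2 response, sh1/2 minus control, were 1.495 in Ntn3, 1.36 in Epha8, 1.22 in Unc5a, 1.03 in Slit1, 0.86 in Efnb1, 0.68 in Sema6a and 0.40 in Plxna3, where the sh1/2 response was the higher, and -1.16 in Epha5, -0.45 in Epha7, -0.43 in Unc5c and -0.36 in Sema6d, where it was the lower. Epha5 rose by 0.37 in sh1/2 cells and by 1.53 in control cells on the log2 scale. Both lines include GC-skewed libraries. Without these 3 the Epha5 call remained and the other calls ended. That fit keeps replicate 2 as the only sh1/2 DOX library, so the losses cannot be assigned to GC skew.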

How the results depend on the processing

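Counts of members under the alternatives, here and above, are given without the share of all genes called under the same alternative. The shares of all genes given above are from the main fit, so a count that moved is not a result about the members. With the replicate number as a block, 29 members were called for the activin B response of the line labelled ALK7, 22 for ALK7-DN, 21 for sh2, 28 for sh1/2 and 23 for control cells, against 24, 16, 18, 26 and 19 without it. The block gave 11 members called in one direction in all 5 lines instead of 6, 3 instead of 0 for the response of the line labelled ALK7 minus control, 20 instead of 11 for that of sh1/2 minus control, and 1 instead of 0 for ALK7-DN against control with DOX alone. In control and sh2 cells the numbers did not meet the rule for pairing. The GC correction gave 12 in all 5 lines, 1 for the response of the line labelled ALK7 minus control, 8 for the line labelled ALK7 and 2 for ALK7-DN against control with DOX alone, and 24 for sh2 against control with activin B; together with the block these were 15, 2, 12, 4 and 27, beside 26 for the ALK7-DN response, 28 for the sh2 response and 16 for the line labelled ALK7 against control with activin B. Without the 3 GC-skewed libraries 1 was called for the response of the line labelled ALK7 minus control. Against control with DOX alone there were 5 for the line labelled ALK7 and 2 for ALK7-DN, and with activin B 4 for the line labelled ALK7. Counts that rest on the sh1/2 DOX group are left out for that fit, which keeps replicate 2 as its only library.

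When only the groups compared were fitted, the counts were 10 for the control response, 16 for the sh1/2 response, 1 for sh1/2 minus control, 1 for the line labelled ALK7 and 8 for sh2 against control with activin B, and 16 instead of 28 other axon guidance genes in control cells. Without the low-count filter they were 7 for sh1/2 minus control and 4 for the line labelled ALK7 against control with activin B. DESeq2 called 1 for the line labelled ALK7 minus control and 1 for ALK7-DN against control with DOX alone. Leaving out 1 library at a time gave 20 to 27 calls for the response of the line labelled ALK7, 13 to 17 for ALK7-DN, 14 to 16 for sh2, 20 to 32 for sh1/2 and 14 to 20 for control cells, 5 to 9 in all 5 lines, and 23 to 28 of the other axon guidance genes. For responses minus control it gave 0 to 1 for the line labelled ALK7, 0 for ALK7-DN and sh2 and 2 to 21 for sh1/2. Against control with DOX alone it gave 1 to 2 for the line labelled ALK7, 0 for ALK7-DN and 23 to 34 for sh1/2, and with activin B 4 to 11 for the line labelled ALK7, 11 to 15 for sh2 and 22 to 27 for sh1/2.

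Of the 194 calls of single members, the scaling by DESeq2's size factors and the block each lost 2, DESeq2 lost 15, no filter 30, the GC correction 20, the correction with the block 15, leaving out the GC-skewed libraries 43, and fitting only the groups compared 61. The batch term lost 8 of the 16 ALK7-DN calls, and among these turned the sign of Epha3, to 0.17, and of Unc5c, to 0.090 on the log2 scale. That term also holds any difference in response between the hairpin lines, so these losses cannot be assigned to batch. The GC correction turned the sign of Sema6c in sh1/2 cells, to -0.040, or -0.030 with the block. Apart from fewer libraries or genes, the cause of these changes was not tested. Ntng1, Ephb4, Sema3d and Epha1 were limited by depth, with few counts in a library.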
